A study of Mus musculus with 35 samples.

Results

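The livers of mice killed 30 and 120 days after a single injection of N-ethyl-N-nitrosourea (ENU) were compared with each other, without passing through the controls. ENU is an alkylating agent that adds ethyl groups to DNA and causes mutations. The comparison holds 8 of the 35 arrays of the series, 4 of post-treatment day (PTD) 30 and 4 of PTD 120, chosen by their labels alone. All 8 mice were female Big Blue transgenic mice, which carry a bacterial reporter gene for scoring mutations, and all received ENU intraperitoneally at 120 mg/kg when 6 months old. Each array measured the small RNA of 1 liver. The 7 vehicle mice, given dimethylsulfoxide (DMSO) and killed on PTD 1 or PTD 30, served as background levels and entered no test. Only 2 of the 7 were run in the same period as the ENU arrays compared here. No vehicle mice of PTD 120 are in the series, so that time since ENU and age of the mouse cannot be told apart.

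MicroRNAs (miRNAs) are short RNAs that pair with messenger RNAs through their seed, bases 2 to 8, and lower the protein made from them. The miR-34 family is transcribed under the control of p53, the transcription factor activated by DNA damage, and represses messenger RNAs of cell cycle and survival genes. miR-34a has a gene of its own, miR-34b and miR-34c are cut from 1 transcript, and the miR-449 miRNAs, best known from cells with many cilia, carry the same seed.

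The sequences below are those of the miRNAs with the clearest difference between the days and of the miR-34 seed family. They were taken from RefSeq (build GRCm38.p6), in which 20 of 24 miRNAs looked up were found. Array names without an arm were assigned by hand to the main arm of the hairpin, so that the sequences of miR-34a, miR-449a, miR-449c, miR-33 and miR-9 are those of the RefSeq 5p arms. Capitals mark the seed.
miR-34a: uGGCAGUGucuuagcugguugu
miR-34b-5p: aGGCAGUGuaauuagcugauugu
miR-449a: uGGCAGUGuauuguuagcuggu
miR-449c: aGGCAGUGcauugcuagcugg
miR-343: uCUCCCUUcaugugcccaga
miR-33: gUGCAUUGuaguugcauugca
miR-434-3p: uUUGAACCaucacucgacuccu
miR-409-3p: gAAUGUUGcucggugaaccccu
miR-671-3p: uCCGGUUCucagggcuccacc
miR-9: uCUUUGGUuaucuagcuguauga

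miR-34a lies at chr4:150068473-150068494 on the plus strand and miR-34b-5p at chr9:51103610-51103632 on the minus strand. The hairpins of Mir34b and Mir34c lie 451 bases apart. miR-449a (chr13:113037549-113037570) and miR-449c (chr13:113036008-113036028) share a cluster on the plus strand. miR-343 lies at chr7:19386688-19386707, miR-33 at chr15:82198127-82198147 and miR-671-3p at chr5:24592171-24592191, each on the plus strand. miR-434-3p (chr12:109594565-109594586) and miR-409-3p (chr12:109743204-109743225) are on the plus strand of the imprinted Dlk1-Dio3 region, with 148558 bases between their hairpins. The same miR-9 is made from 3 genes, on chromosomes 3, 7 and 13. miR-34c, miR-449b, miR-467c and miR-150 were not matched.

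The unit throughout is -ΔCt, the mean threshold cycle (Ct) of snoRNA251, snoRNA202, snoRNA142 and U6 minus the Ct of the miRNA on the same array. It is a log2 scale on which a higher value stands for more RNA, and a difference of 1 is a 2-fold change. Differences are given as PTD 120 minus PTD 30. The tissue label held: miR-122, the main miRNA of hepatocytes, had the lowest Ct of the 376 miRNAs on each of the 8 arrays, and miR-192, miR-194 and miR-148a, also of hepatocytes, had mean Cts of 16.3 to 17.3. Another hepatocyte miRNA, miR-802, had a mean Ct of 20.6, and the markers of biliary epithelium had 24.4 to 29.6. The markers of muscle had mean Cts of 28.5 to 34.7, those of pancreas 28.5 to 32.9 and those of neurons 25.4 (miR-137) to 31.7. The 4 reference RNAs averaged 21.9 ± 0.249 cycles at PTD 30 (SD, n = 4), and PTD 120 differed from this by 0.014 cycles (exact permutation p = 0.971). Single reference RNAs were less even than their mean. At PTD 120 the SD was 1.19 for snoRNA251, 1.18 for snoRNA202, 0.97 for U6 and 0.21 for snoRNA142, against 0.36 for the mean. At PTD 30 these SDs were 0.80, 0.48, 0.64 and 0.18. Only 1 well of the 376 miRNAs was Undetermined, miR-466b-5p in replicate 4 of PTD 30. Replicate 4 of PTD 120 stood apart from the other arrays in Ct. Its median Ct was 28.1 against 28.7 to 29.1 on the other 7, and 247 of its miRNAs had a Ct of at most 30 against 218 to 231. Its reference mean was also the lowest, at 21.5 cycles. Its median -ΔCt of -6.63 lay within the range of the other 7, -7.16 to -6.61. The arrays of replicates 1 and 2 of PTD 30 were run on an earlier day than the other 6, and on the later day both PTD 30 arrays preceded those of PTD 120. All PTD 30 arrays were thus run before all PTD 120 arrays. Order of the run and PTD therefore cannot be told apart, neither over the 8 arrays nor on the later day. On that day 2 arrays of PTD 30 stand against 4 of PTD 120.

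Between PTD 30 and PTD 120, 3 miRNAs passed the unadjusted thresholds given below, all of them lower at PTD 120. They were miR-34b-5p, miR-343 and miR-34a, 2 of the 3 being members of the p53-controlled family. A differentially expressed miRNA (DEM) was one with an unadjusted limma p under 0.01 and a difference of more than 2-fold. The 3 DEMs make up 0.798% of the 376 miRNAs tested, and with a p under 0.01 at any fold change the share was 1.06%. None had a Benjamini-Hochberg adjusted p under 0.05 in limma, the lowest being 0.659. Under the 22 other settings the lowest was 0.0749 to 0.999, the smallest in 1 fit of all 7 groups. An unadjusted p under 0.05 was found in 13 miRNAs (3.46%), 9 lower and 4 higher. The shares under 0.01 and under 0.05 were close to or below those that chance alone gives at these thresholds. The test that the methods name, without stating its scale, called 2 DEMs on ΔCt and 1 (miR-343) on 2 to the power of -ΔCt, and on each scale gave none with an adjusted p under 0.05 and 12 with an unadjusted p under 0.05.

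**Figure D1:**
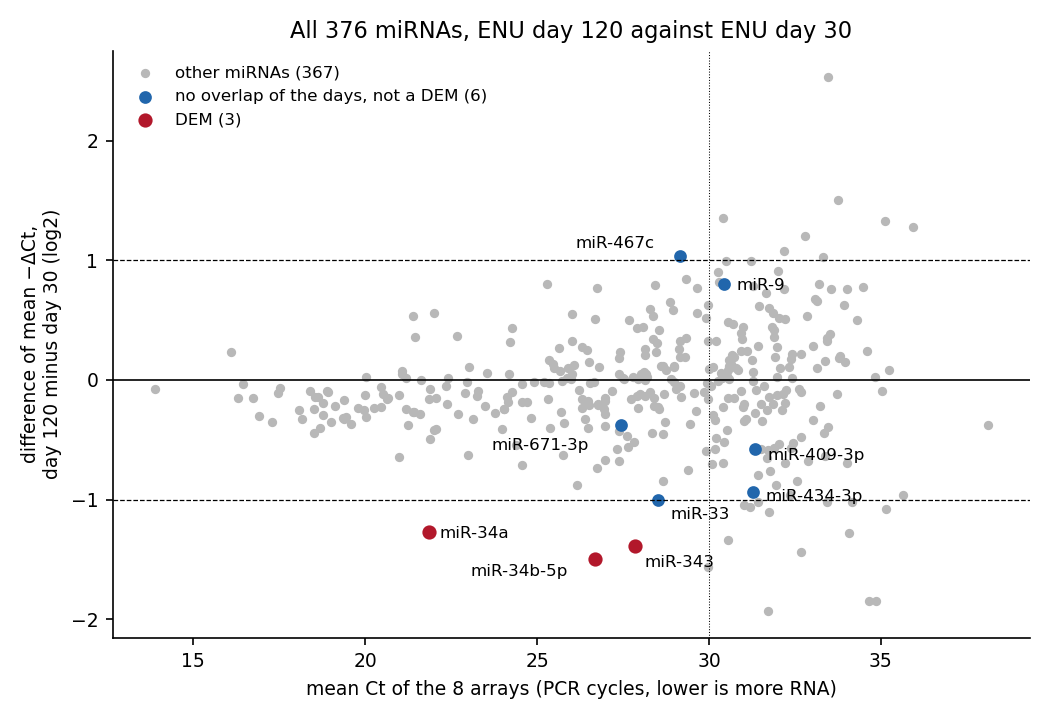
The difference of mean -ΔCt between PTD 120 and PTD 30 (log2, vertical axis) against the mean Ct of the 8 arrays (cycles, horizontal axis) for each of the 376 miRNAs. Red points are the 3 DEMs, all below -1 at mean Cts under 30, blue points are the other 6 miRNAs without overlap between the days, dashed lines mark a 2-fold change and the dotted line marks a Ct of 30.

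miR-34b-5p had the largest of the 3 declines. At PTD 30 its -ΔCt was -4.48, -3.61, -3.54 and -4.34 in replicates 1 to 4, and at PTD 120 it was -5.64, -5.77, -5.78 and -4.77. The groups did not overlap, replicates 2 and 3 were the highest of PTD 30, and replicate 4 was the highest of PTD 120. The difference was -1.50 (SE 0.37, 95% interval -2.31 to -0.69), a 2.83-fold lower level (limma, p = 0.00184, adjusted p = 0.659, exact permutation p = 0.0286). With 70 ways to split the 8 arrays, that exact p is the smallest that 4 against 4 allows. Within the later run day the difference was -1.55, with an exact permutation p = 0.0667, the smallest that 2 against 4 allows.

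miR-34a, the family member with the lowest mean Ct (21.8), had the same order of mice at PTD 30, and replicate 4 was again the highest at PTD 120. Its -ΔCt was 0.24, 1.07, 1.19 and 0.47 at PTD 30 and -0.72, -0.71, -0.87 and 0.20 at PTD 120. Replicate 4 of PTD 120 fell only 0.04 short of the lowest PTD 30 mouse. The difference was -1.27 (SE 0.37, 95% interval -2.07 to -0.46), 2.41-fold lower (limma, p = 0.00526, adjusted p = 0.659, exact permutation p = 0.0286). Within the later run day it was -1.36, and with the run day as a block miR-34a lost its call.

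The level of miR-34b-5p relative to miR-34a hardly varied among mice of the same day. Subtracting miR-34a from miR-34b-5p on each array removes the reference RNAs, and left a gap of -4.73 ± 0.05 at PTD 30 and -4.96 ± 0.07 at PTD 120 (SD, n = 4 each). These SDs compare with 0.49 and 0.48 for miR-34b-5p itself. Whether 1 of the 2 assays also reads the other miRNA, whose seed it shares, was not tested. The gap differed by -0.23 between the days without overlap (exact permutation p = 0.0286, adjusted p = 0.0571 over 6 such pairs).

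Set against the controls, both miRNAs lay above the highest control in every PTD 30 mouse and in fewer PTD 120 mice, which for miR-34a depended on controls of other run periods. miR-34a ranged from -1.79 to -0.66 in the 7 controls, and 4 of 4 PTD 30 mice and 1 of 4 PTD 120 mice lay above that range. The 2 controls from the run period of these arrays were at -1.51 and -0.92, and 4 of 4 mice of each ENU day lay above both. miR-34b-5p ranged from -6.56 to -5.67 in the controls, with 4 of 4 PTD 30 mice and 2 of 4 PTD 120 mice above. Of those 2, replicate 1 exceeded the highest control by 0.04, and replicate 4 by 0.90. That highest control is of the same run period, so that the counts against the 2 controls of that period were also 4 and 2.

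The other members of the seed family were measured at higher Cts and did not separate the days. miR-34c was -8.49, -7.56, -7.74 and -8.59 at PTD 30 and -9.40, -8.24, -9.58 and -7.94 at PTD 120. The days overlapped, and the difference was -0.70 (95% interval -1.68 to 0.29, limma adjusted p = 0.985, exact permutation p = 0.229). With 1 array left out it ran from -0.98, without replicate 4 of PTD 120 and then with an unadjusted limma p under 0.05, to -0.43, without replicate 3 of PTD 120. Relative to miR-34c on the same array, miR-34b-5p was lower at PTD 120 by a difference of -0.80 without overlap (exact permutation p = 0.0286, adjusted p = 0.0571). Both are cut from 1 transcript. Relative to miR-34b-3p, the other strand of its own hairpin, which was named after its values were seen, the difference was -1.08 with overlap (exact permutation p = 0.0571, adjusted p = 0.0571). Both comparisons set an assay with a mean Ct of 26.7 beside one with a mean Ct above 30.

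Among the miR-449 miRNAs, miR-449b differed by -0.70 (95% interval -1.51 to 0.10) and miR-449c by -0.14 (95% interval -0.94 to 0.65). miR-449a differed by 1.03 the other way (95% interval -0.25 to 2.31), with a mean Ct of 33.3. That value rested on replicate 4 of PTD 120, at -8.87 against -11.7 to -11.2 in the other PTD 120 mice and -12.5 to -11.6 at PTD 30. Of the 6 family members, 2 passed the DEM thresholds, both lower, beside 0.798% of all miRNAs, and 5 of 6 lay below 0, beside 57.7% of all miRNAs.

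**Figure D2:**
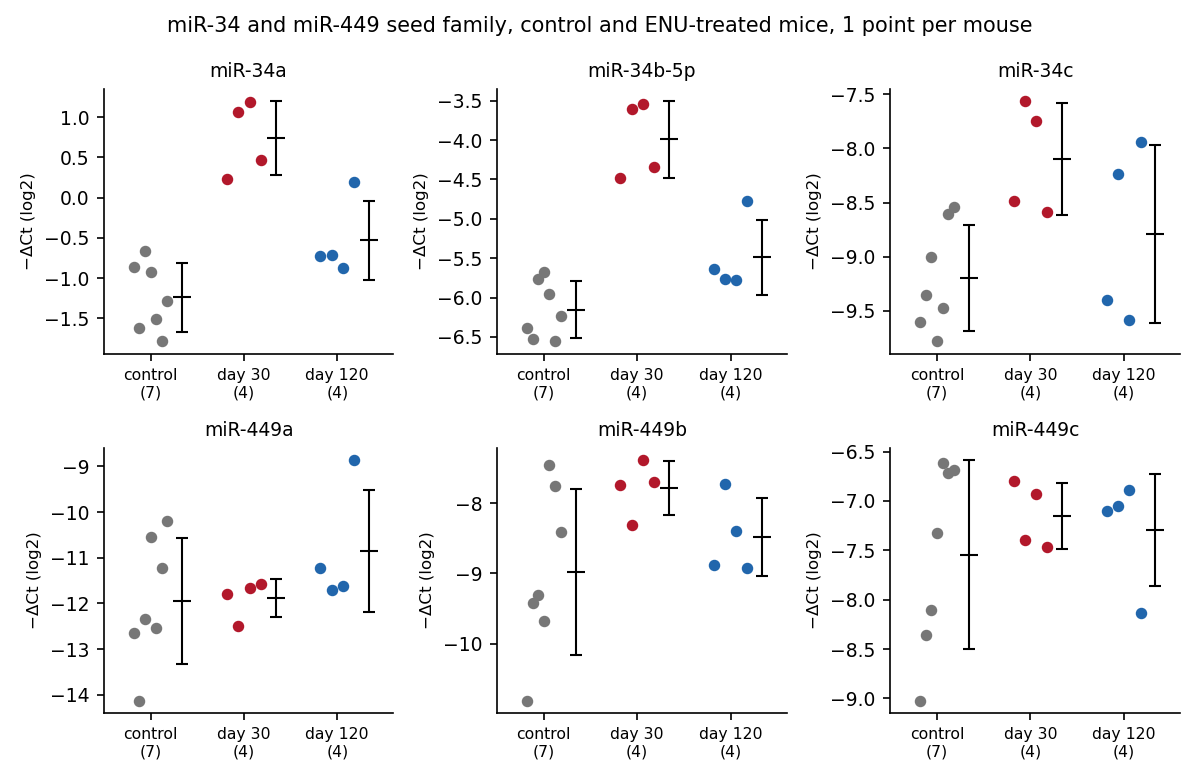
The -ΔCt (log2, vertical axis) of the 6 miR-34 and miR-449 miRNAs in each of the 7 controls, 4 PTD 30 mice and 4 PTD 120 mice; points are mice and bars are the mean ± SD. miR-34a and miR-34b-5p separate the 2 ENU days, miR-34c, miR-449b and miR-449c overlap, and 1 PTD 120 mouse of miR-449a stands at -8.87.

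miR-343 was the third DEM. Its -ΔCt was -5.09, -4.75, -5.67 and -5.24 at PTD 30 and -6.06, -6.06, -7.48 and -6.70 at PTD 120. Every PTD 120 mouse was below every PTD 30 mouse, with replicate 3 of PTD 120 the lowest. The difference was -1.39 (SE 0.39, 95% interval -2.25 to -0.52), 2.62-fold lower (limma, p = 0.00468, adjusted p = 0.659, exact permutation p = 0.0286). The controls spanned -6.64 to -4.92, which holds 3 of the 4 PTD 30 mice, and 2 of the 4 PTD 120 mice lay below it. The 2 controls of the same run period were at -5.20 and -4.92, with 4 of 4 PTD 120 mice and 2 of 4 PTD 30 mice below both. Within the later run day the difference was -1.12, and with the run day as a block miR-343 lost the call.

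The direction of the 3 DEMs held under each of 22 other settings, but each lost its call in at least 1. Since their days did not overlap, leaving out an array or blocking by run day could not change a direction. Settings that changed only the test or its spread left the difference as it was. The kept direction is therefore mostly no check. miR-34b-5p ranged from -1.74 to -1.35 and kept its call in 21 of 22, the exception being the test the methods name, run on 2 to the power of -ΔCt. miR-34a ranged from -1.51 to -1.12 and lost its call in 11 of 22, among them 5 in which replicate 2 or 3 of PTD 30 or replicate 1, 2 or 3 of PTD 120 was left out, where the differences were -1.21 to -1.12. miR-343 ranged from -1.56 to -1.08 and lost its call in 8 of 22, among them 5 in which replicate 1, 2 or 4 of PTD 30 or replicate 3 or 4 of PTD 120 was left out.

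**Figure D3:**
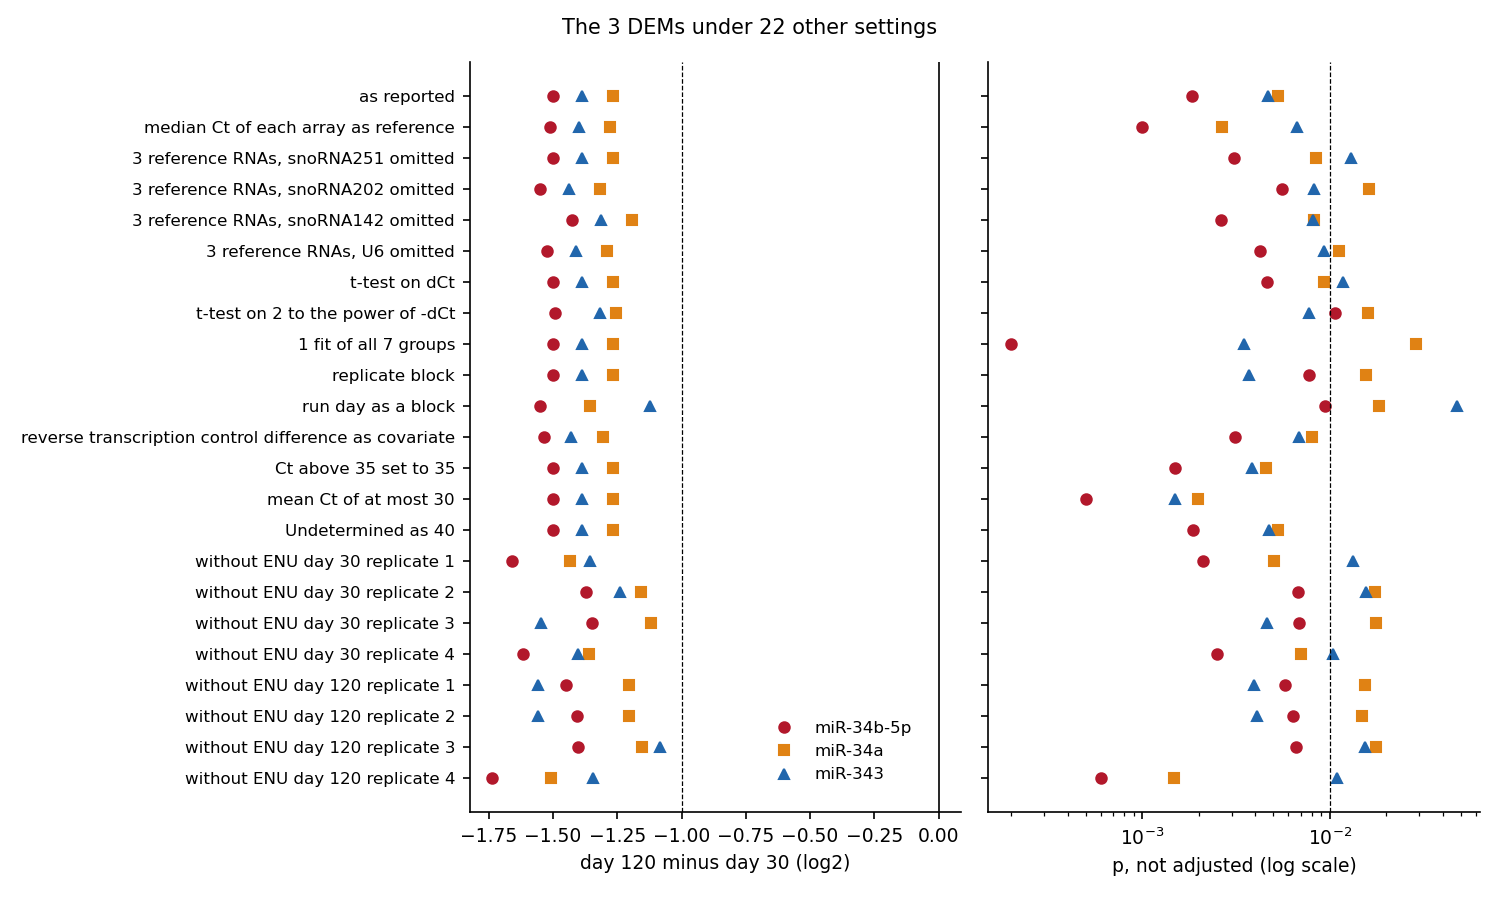
Difference of mean -ΔCt (log2, left) and unadjusted p (log scale, right) of the 3 DEMs as reported and under 22 other settings; dashed lines mark a 2-fold decline and a p of 0.01. All differences stay below -1, and the p of miR-34a and miR-343 crosses 0.01 in 11 and 8 settings.

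Beyond the DEMs, the 4 values of one day did not overlap with the 4 of the other in 6 more miRNAs, making 9 in all (2.39% of the 376), 7 lower (1.86%) and 2 higher (0.532%). A lack of overlap has the smallest exact permutation p, 0.0286, and chance alone gives it in that share of miRNAs. The share found was no larger, so the lack of overlap does not set these miRNAs apart from chance. The lower ones included miR-33, which lies in an intron of Srebf2, the gene of a regulator of cholesterol synthesis, and represses the cholesterol exporter Abca1. It was -6.82, -5.11, -5.61 and -6.71 at PTD 30 and -7.01, -7.20, -7.12 and -6.94 at PTD 120. The PTD 120 mice were close together, and 2 PTD 30 mice lay just above them. The difference was -1.01 (SE 0.41, limma p = 0.0323, adjusted p = 0.985, exact permutation p = 0.0286), and it was -0.69 without replicate 2 of PTD 30.

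miR-434-3p and miR-409-3p, both of the Dlk1-Dio3 region, whose miRNAs are expressed from the maternal chromosome, were lower at PTD 120 without overlap. miR-434-3p was -8.45, -8.76, -8.96 and -9.28 at PTD 30 and -9.85, -9.62, -9.81 and -9.93 at PTD 120. Its difference of -0.94 (SE 0.30) passed a p of 0.01 in limma (p = 0.00994, adjusted p = 0.766, exact permutation p = 0.0286) but not the 2-fold threshold. miR-409-3p differed by -0.58 (SE 0.30, limma p = 0.077, adjusted p = 0.985, exact permutation p = 0.0286), with PTD 30 at -9.17 to -8.97 and PTD 120 at -9.85 to -9.18. The other strands of the 2 hairpins, named after their values were seen, differed by -0.75 (miR-434-5p, 95% interval -1.81 to 0.30) and -0.25 (miR-409-5p, 95% interval -1.41 to 0.90).

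The region as a whole had 27 of 42 miRNAs below 0 and a median of -0.18, beside a median of -0.09 over all miRNAs. One of its members, miR-380-3p, was higher at PTD 120, by 1.28 (SE 0.41, limma p = 0.0102, adjusted p = 0.766, exact permutation p = 0.0571), but its mean Ct was 35.9, and with Ct values above 35 set to 35 the difference was 0.22. The last of the lower miRNAs without overlap, miR-671-3p, differed by only -0.38 (SE 0.29, limma p = 0.212, adjusted p = 0.985, exact permutation p = 0.0286). Its PTD 30 mice lay between -5.33 and -5.24 and its PTD 120 mice between -5.91 and -5.42.

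The 2 miRNAs higher at PTD 120 without overlap were miR-9 and miR-467c. miR-9, a miRNA of neural progenitors and neurons, was -8.64, -9.15, -8.51 and -9.28 at PTD 30 and -8.31, -7.63, -8.10 and -8.34 at PTD 120, a difference of 0.80 (SE 0.33, limma p = 0.032, adjusted p = 0.985, exact permutation p = 0.0286). Its mean Ct was 30.4. miR-467c, from the large miRNA cluster in an intron of Sfmbt2, was -7.65, -7.53, -7.56 and -8.15 at PTD 30 and -7.23, -6.67, -7.50 and -5.36 at PTD 120. The difference was 1.03 (SE 0.46, limma p = 0.0446, adjusted p = 0.985, exact permutation p = 0.0286). Without replicate 4 of PTD 120 it was 0.59 and no longer had a limma p under 0.05. In that cluster 10 of 16 miRNAs lay above 0, beside 42.3% of all miRNAs, with a median of 0.24 that was 0.03 without the same replicate.

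**Figure D4:**
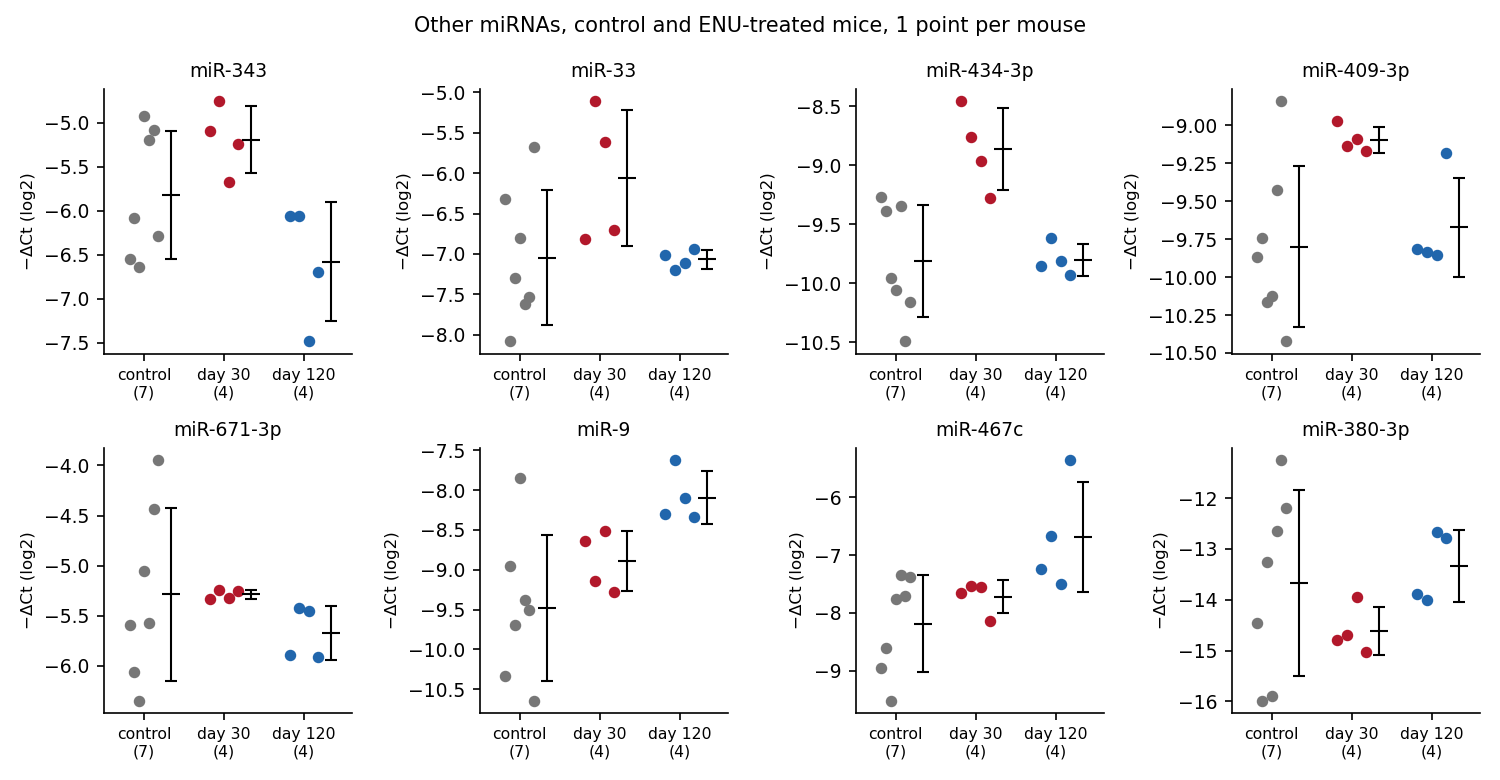
The -ΔCt (log2, vertical axis) of miR-343, of the 6 further miRNAs without overlap between the days and of miR-380-3p in 7 controls, 4 PTD 30 mice and 4 PTD 120 mice; points are mice and bars are the mean ± SD. The first 5 panels are lower at PTD 120 and the last 3 are higher, and miR-467c has 1 PTD 120 mouse at -5.36.

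The remaining miRNAs with an unadjusted limma p under 0.05 included 2 of a list of 13 that had been called against the controls of this series at PTD 30 or PTD 120, which is no independent evidence of their direction. miR-698 differed by -1.34 (SE 0.57) and miR-590-5p by -1.44 (SE 0.65), at mean Cts of 30.6 and 32.7. Without replicate 3 of PTD 120, miR-590-5p differed by -0.77. Together with miR-34a and miR-34b-5p, 4 of the 13 had a p under 0.05, all lower, beside 2.39% of all miRNAs lower by this rule, and the median of the list was -0.16, or 0.05 without replicate 4 of PTD 120 and 0.03 within the later run day. A further pair did not separate the days, miR-135b at -0.16 (95% interval -0.94 to 0.63) and miR-453 at 0.50 (95% interval -0.33 to 1.33). With 1 array left out, miR-453 ran from 0.30 to 0.72.

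Across all 376 miRNAs the days were close. The median of the per-miRNA differences was -0.09, with 217 of 376 below 0, whereas the median -ΔCt of the arrays differed by 0.01 (exact permutation p = 0.943), so that the 2 summaries differ in sign. The share below 0 was highest among the miRNAs with the lowest Ct. Of the 91 miRNAs whose mean Ct was 25 or lower, 76 lay below 0 and 15 above, with a median of -0.17, while at higher mean Cts the medians were -0.02 (130 miRNAs, Ct 25 to 30) and 0.02 (155 miRNAs, Ct above 30). A difference above 2-fold, without regard to a test, was found in 27 miRNAs (7.18%), and 21 of the 27 had a mean Ct above 30, where the within-day SD had a median of 0.754 against 0.412 at a Ct of at most 25.

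The hepatocyte miRNAs showed no difference beyond the spread of the mice. miR-122, which acts in lipid and cholesterol metabolism, was 8.26, 8.08, 8.50 and 7.63 at PTD 30 and 7.84, 8.47, 7.73 and 8.12 at PTD 120. The difference was -0.08, with a 95% interval of -0.79 to 0.64. All 5 hepatocyte miRNAs lay below 0, none with a p under 0.05, between -0.35 (miR-148a) and -0.08, with a median of -0.16. miR-148a ran from -0.58 without replicate 4 of PTD 30 to -0.09 without replicate 1 of PTD 120. Relative to miR-122 on the same array, without any reference RNA, miR-34b-5p differed by -1.42 (exact permutation p = 0.0286), miR-34a by -1.19 (exact permutation p = 0.0571) and miR-343 by -1.31 (exact permutation p = 0.0571), each with an adjusted p of 0.0571 over 6 pairs.

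The miRNAs of white blood cells lay on the other side. All 8 were above 0, between 0.05 (miR-146a) and 0.56 (miR-223), with a median of 0.38, and 0 of 8 had a p under 0.05 in limma. Of the 8, 5 are among the 91 miRNAs with a mean Ct of 25 or lower, of which 15 lay above 0. In RNA of whole liver, a change in the number of cells of a type and a change in RNA per cell cannot be told apart. miR-223, a miRNA of granulocytes and monocytes, was -0.63, -0.24, 0.31 and -0.73 at PTD 30 and 0.25, 0.17, -0.01 and 0.54 at PTD 120. The ranges overlapped through replicate 3 of PTD 30, and the difference was 0.56 (95% interval -0.17 to 1.29).

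The mean of the 8 white blood cell miRNAs ran from -2.80 to -1.59 over the PTD 30 mice and from -2.25 to -1.68 over the PTD 120 mice, overlapping. Within the later run day 7 of 8 lay above 0, and with the median Ct of each array as reference 8 of 8 did. The median of the list ran from 0.20, without replicate 4 of PTD 30, to 0.64, without replicate 3 of PTD 30, with 1 array left out. The miR-181 miRNAs, which act in lymphocyte development, were also above 0 in 3 of 3 with a median of 0.59, up to 0.76 for miR-181b. That rested on replicate 4 of PTD 120, without which the median was -0.05 and miR-181b differed by 0.08.

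The other lists of cell types gave smaller or mixed values, none with a DEM. The red cell miRNAs lay below 0 in 3 of 3 with a median of -0.29, led by miR-144 at -0.43 (95% interval -1.57 to 0.71), which ran from -0.88 without replicate 1 of PTD 30 to -0.07 without replicate 3 of PTD 30. The median was 0.23 without replicate 4 of PTD 120. The endothelial and stromal miRNAs had a median of -0.10, with miR-199b the farthest from 0 at 0.36, or -0.04 without replicate 4 of PTD 120. The epithelial and biliary miRNAs had 6 of 9 below 0 and a median of -0.38, which ran from -0.74 without replicate 4 of PTD 30 to -0.16 without replicate 4 of PTD 120. miR-183, miR-182 and miR-96, which are cut from 1 transcript, differed by -0.73, -0.67 and -0.63 (95% intervals -1.60 to 0.13, -1.52 to 0.19 and -1.60 to 0.34). In the same list, miR-141 differed by 0.77, with a 95% interval from -0.97 to 2.51, and by -0.14 without replicate 4 of PTD 30.

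The lists of muscle, neuronal, pancreatic and embryonic stem cell miRNAs, most of whose members had a mean Ct above 30, gave no common direction. The muscle miRNAs ranged up to 0.51 and down to -1.85 (miR-133b, mean Ct 34.7). That lowest value rested on replicate 3 of PTD 120, at -17.1, without which it was -0.69. Of the others, the neuronal miRNAs had 4 of 7 above 0, miR-9 among them, and the pancreatic miRNAs had 3 of 4 above 0 and miR-216a at -0.68, or -1.06 without replicate 4 and -0.41 without replicate 2 of PTD 30. Of the 12 embryonic stem cell miRNAs, 8 lay below 0, with miR-290-5p the farthest at -1.07 (95% interval -3.38 to 1.23), which ran from -1.72 without replicate 2 of PTD 120 to -0.32 without replicate 4 of PTD 30.

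The growth-related families lay mostly below 0, and every 95% interval of their members included 0. The let-7 family, which restrains growth genes, had 8 of 9 below 0 and a median of -0.15, with let-7a at -0.40 (95% interval -1.19 to 0.39) and let-7f, of low Ct, at -0.15. The miR-17-92 cluster and its paralogs, which promote the cell cycle, had 10 of 12 below 0 and a median of -0.14. Within the later run day 8 of 12 were below 0. The median ran from -0.30, without replicate 4 of PTD 30, to -0.03, without replicate 3 of PTD 30. The farthest member of this list, miR-363, at 0.99, differed by 0.17 without replicate 4 of PTD 120. The miR-30 family lay below 0 in 5 of 5 (median -0.25, miR-30e at -0.41), the miR-29 family in 3 of 3 (median -0.18, miR-29c at -0.32), and the miR-23, miR-27 and miR-24 clusters in 4 of 5 (miR-23b at -0.33). These values moved with single arrays, the miR-30 median from -0.44 without replicate 4 of PTD 30 to -0.12 without replicate 3 of PTD 30. Without replicate 4 of PTD 30, miR-29c was -0.60, miR-23b -0.55, miR-30e -0.62 and the miR-29 median -0.43. The values nearest 0 were -0.07 for miR-29c and the miR-29 median without replicate 1 of PTD 120, -0.14 for miR-23b without replicate 3 of PTD 30 and -0.28 for miR-30e without replicate 2 of PTD 30. let-7a ran from -0.60 without replicate 2 of PTD 120 to -0.15 without replicate 3. No member of these lists had a p under 0.05, beside 76 below 0 among the 91 miRNAs of lowest Ct.

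The p53-responsive miR-192, miR-194 and miR-215 were at -0.30, -0.15 and -0.36, none with a p under 0.05. Whether they differed less than miR-34a, at -1.27, was not tested, and miR-215 had a 95% interval of -1.30 to 0.58. With 1 array left out, miR-215 ran from -0.68 to -0.055. The median of the 3 ran from -0.55, without replicate 4 of PTD 30, to -0.14, without replicate 2 of PTD 30. The miR-15 and miR-16 family, which holds back the cell cycle, had a median of -0.05, with miR-322 at 0.37, or 0.03 without replicate 4 of PTD 120, and miR-16 at -0.04. miR-221 and miR-222, which are often raised in tumours, were at -0.16 and -0.47, the latter running from -0.78 without replicate 4 of PTD 30 to -0.21 without replicate 3. The list of liver tumour-associated miRNAs had 8 of 11 below 0 and a median of -0.32, or -0.14 without replicate 3 of PTD 30, without a p under 0.05, and miR-21, which is often raised in tumours and inflammation and had the second lowest mean Ct here, was at 0.23 (95% interval -0.56 to 1.02), or 0.02 without replicate 4 of PTD 120.

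The medians of the lists rested on few mice. With 1 array left out, the median changed sign in 12 of the 23 lists and kept it in 11, the white blood cell and the miR-34 and miR-449 lists among the 11. Leaving out replicate 3 of PTD 30 turned 7 medians above 0, those of the let-7 (0.01), hepatocyte (0.01), red cell (0.04), endothelial and stromal (0.10), miR-15 and miR-16 (0.10), miR-23, miR-27 and miR-24 (0.0017) and embryonic stem cell (0.03) miRNAs. The median turned negative for neuronal miRNAs without replicate 4 of PTD 30 (-0.04) and for muscle miRNAs without replicate 2 of PTD 120 (-0.41). Without replicate 1 of PTD 120 it turned positive for the endothelial and stromal (0.07), Dlk1-Dio3 (0.03) and embryonic stem cell miRNAs (0.01). It also did so for the let-7 family without replicate 3 of PTD 120 (0.05), and for the embryonic stem cell miRNAs without replicate 1 of PTD 30 (0.045) or replicate 4 of PTD 120 (0.06). None of these medians was tested.

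**Figure D5:**
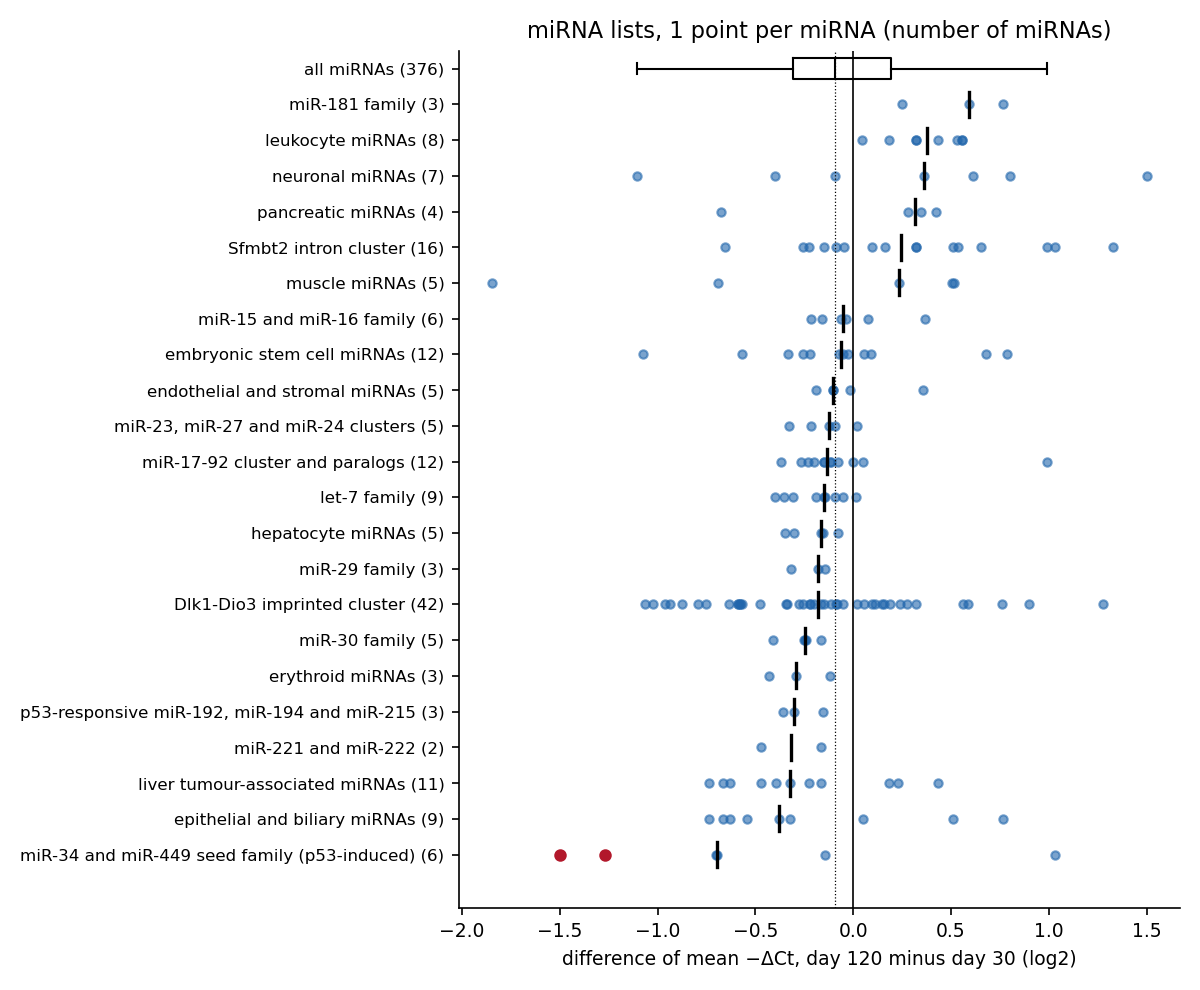
Difference of mean -ΔCt between PTD 120 and PTD 30 (log2, horizontal axis) of every miRNA of 22 lists, in order of the list median (black bars), below a box of all 376 miRNAs (quartiles, with whiskers over the central 95%). The 2 red points, DEMs, are in the miR-34 and miR-449 family, and all 8 white blood cell miRNAs (leukocyte miRNAs) lie to the right of 0.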

How the data were processed

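The authors isolated RNA shorter than 200 nucleotides from frozen liver, made cDNA and ran 40 PCR cycles on arrays of 384 wells. They deposited the Ct of each well, with a fluorescence threshold of 0.15 and no normalization (unit: cycles, on a log2 scale). Wells were named from the paper's list of miRNAs.

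ΔCt used the mean of 4 reference RNAs, as in the paper. An Undetermined well was missing. The 4 arrays of PTD 120 and the 4 of PTD 30 were compared on -ΔCt in limma (version 3.58.1, R 4.3.3) with moderated two-sided tests, no covariate and no filter, and tested on simulated data. Exact permutation tests were two-sided. Labels describe separate mice.

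Named miRNAs were the DEMs, in each of 23 lists the members with p under 0.05 or else the farthest from 0, those without overlap, the 5 with the lowest mean Ct and 6 fixed names. Rule, members and lists were chosen with earlier results of these data known. The comparisons of 2 miRNAs on the same array (6 pairs) were added after seeing the data. Their adjusted p covers only the 6 pairs, not the choice of these miRNAs among the 376. The 22 alternatives changed the reference, test, covariates, low values, Undetermined wells or arrays. The number of arrays limits precision, with a median 95% half-width of 0.87 (log2).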

Additional observations from a re-analysis of the deposited data

Results flagged for a closer look

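In 6 of 84 groups of 4 mice, 1 mouse stood far from the other 3, where about 1 in 20 groups is flagged by chance. Replicate 4 of PTD 120 was such a mouse for miR-34a (-ΔCt 0.198, others -0.87 to -0.71), for miR-34b-5p (-4.77, others -5.78 to -5.64) and for miR-409-3p (-9.18, others -9.85 to -9.82). At PTD 120, replicate 1 stood apart for miR-144 (-5.40, others -5.74 to -5.73) and replicate 2 for miR-16 (5.92, others 5.33 to 5.35). At PTD 30, replicate 4 stood apart for miR-363 (-10.8, others -9.50 to -9.27). Without replicate 4 of PTD 120 the differences were -1.51 for miR-34a, -1.74 for miR-34b-5p and -0.74 for miR-409-3p.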

How the results depend on the processing

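The count of 3 DEMs was 1 with the t-test on 2 to the power of -ΔCt (miR-343) and 1 with the run day as a block (miR-34b-5p), and it ran from 2 to 5 with 1 array left out, 5 being without replicate 2 of PTD 120. No alternative gave an adjusted p under 0.05, also with each array left out (0 to 0). The array-median difference of 0.01 changed sign without snoRNA202 (-0.0377), without U6 (-0.0116) and with only miRNAs of a mean Ct of at most 30 (-0.0302), and ran from -0.106 to 0.105 with 1 array left out. Replicate numbers do not pair the mice (correlations of same-numbered mice -0.0025, -0.061, 0.128 and -0.0817), and with the replicate block 2 DEMs were called, without miR-34a, and none had an adjusted p under 0.05. Of 825 values of 38 named miRNAs, 779 kept direction and side of the threshold, 20 lost and 10 gained a call, and 16 changed sign. None of the 16 was a value of a DEM, for which many settings could not change the sign. The sign changes were miR-16 without snoRNA142 (0.0371), miR-215 (0.0228), miR-16 (0.0405) and miR-135b (0.0293) with the run day as a block, and with 1 array left out miR-16 (-0.261 to 0.136), miR-194 (-0.361 to 0.0083), let-7f (-0.363 to 0.0069), miR-122 (-0.242 to 0.0495), miR-141 (-0.143 to 1.21), miR-135b (-0.359 to 0.0537) and miR-199b (-0.0449 to 0.586), each ranging across 0. Among the gained calls of named miRNAs, miR-380-3p was the only higher one. Outside them miR-759, named after its values were seen, was called higher without snoRNA202 and without replicate 4 of PTD 30. The cause was not tested. Above a mean Ct of 30, spread between mice limits what 4 against 4 arrays can show.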
